A study of Mus musculus with 7 samples.

Results

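The genes that encode 10 nuclear receptors known to pair with retinoid X receptors (RXRs) were examined for binding of RXRα and of the retinoic acid receptors RARα and RARβ in mouse liver. The genes were Ppara, Ppard, Pparg, Nr1h2, Nr1h3, Nr1h4, Nr1i2, Nr1i3, Thrb and Vdr, 10 of the 17492 protein-coding genes with a listed transcription start. They were chosen by name, and their peaks were those whose midpoint lay in the gene span or within 50 kb of it. This window held 541 of the 245004 peaks in the 6 lists. The values therefore concern receptor binding beside these genes and not the binding or the amount of the receptors they encode.

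Chromatin immunoprecipitation sequencing was performed on livers of wild type male C57BL/6 mice aged 3 months that had been given either a normal diet or a retinoic acid (RA) diet. The labels give a treatment of 1 day, while the study's methods give a longer one, so the duration was not settled. Each of the 3 antibodies gave 1 library on the control diet and 1 on the RA diet. There were no replicates, so no difference between diets or receptors could be tested. Whole liver was used, so cell types cannot be told apart. The 6 lists held 35521 (RARα, control), 44296 (RARα, RA), 14968 (RARβ, control), 29467 (RARβ, RA), 61128 (RXRα, control) and 59624 (RXRα, RA) peaks. The read depth behind each list is unknown, and deeper sequencing alone can lengthen a list. The study gives read totals for RXRα and RARα only and not by diet, and that of RARα was the higher, although the RXRα lists were longer. The score of a peak is the peak caller's own value, and it was not normalized between libraries. Its rank within a list is therefore given as a percentage from the top, so that a low percentage marks a high score. Where scores of 2 diets or receptors stand side by side without ranks, they do not measure a difference in binding. The median score of the whole RARβ list, for example, was 76.3 on the control diet and 99.4 under RA.

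RXRs bind DNA as dimers with many other nuclear receptors, each of which senses a class of small molecules. The PPARs respond to fatty acids, the liver X receptors Nr1h3 (LXRα) and Nr1h2 (LXRβ) to oxysterols, the farnesoid X receptor Nr1h4 (FXR) to bile acids, and the pregnane X receptor Nr1i2 (PXR) and constitutive androstane receptor Nr1i3 (CAR) to foreign compounds. Thrb encodes a thyroid hormone receptor, and Vdr encodes the vitamin D receptor. The receptors typically recognise pairs of a short half-site, AGGTCA or a close variant of it, and the distance between the half-sites differs between dimers.

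The 250 bases before 6 of the 14 listed starts are shown because they cover the range of binding at these promoters. The Ppard promoter carried the highest-ranking RARα promoter peaks, Pparg start 3 the highest-ranking RXRα promoter peak on the control diet, Nr1h4 and Thrb start 1 a half-site under peaks in 5 lists, and Pparg start 1 and Vdr no peak. The sequences are from RefSeq on GRCm38.p6, run 5′ to 3′ on the strand of the gene, and end at the base before the start. Capitals mark 4 half-sites, searched on both strands: the sequence AGGTCA, its variant AGTTCA, its variant GGGTCA, and the variant GGTTCA. Where AGGTCA lay on the opposite strand it reads TGACCT here, and where AGTTCA did it reads TGAACT.
Ppard (chr17:28232504-28232753, plus strand): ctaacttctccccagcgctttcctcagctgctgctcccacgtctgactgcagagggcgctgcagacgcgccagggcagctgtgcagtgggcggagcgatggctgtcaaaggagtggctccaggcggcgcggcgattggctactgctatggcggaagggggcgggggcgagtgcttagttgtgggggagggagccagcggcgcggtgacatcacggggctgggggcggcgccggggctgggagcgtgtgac
Pparg start 1 (chr6:115360894-115361143, plus strand): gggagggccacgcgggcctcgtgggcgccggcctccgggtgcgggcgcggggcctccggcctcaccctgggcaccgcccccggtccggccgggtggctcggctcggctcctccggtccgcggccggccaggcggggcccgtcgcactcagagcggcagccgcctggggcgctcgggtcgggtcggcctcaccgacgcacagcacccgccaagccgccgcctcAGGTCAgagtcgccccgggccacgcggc
Pparg start 3 (chr6:115421816-115422065, plus strand): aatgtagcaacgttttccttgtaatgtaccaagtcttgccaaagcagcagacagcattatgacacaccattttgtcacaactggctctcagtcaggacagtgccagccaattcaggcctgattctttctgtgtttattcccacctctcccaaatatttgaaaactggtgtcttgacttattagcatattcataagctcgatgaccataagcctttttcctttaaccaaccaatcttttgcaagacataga
Nr1h4 (chr10:89506659-89506908, minus strand): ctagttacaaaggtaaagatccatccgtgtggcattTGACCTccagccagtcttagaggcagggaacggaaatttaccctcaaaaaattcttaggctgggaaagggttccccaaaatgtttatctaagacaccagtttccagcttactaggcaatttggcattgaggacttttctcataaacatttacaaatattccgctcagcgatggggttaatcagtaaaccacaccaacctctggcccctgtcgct
Thrb start 1 (chr14:17660710-17660959, plus strand): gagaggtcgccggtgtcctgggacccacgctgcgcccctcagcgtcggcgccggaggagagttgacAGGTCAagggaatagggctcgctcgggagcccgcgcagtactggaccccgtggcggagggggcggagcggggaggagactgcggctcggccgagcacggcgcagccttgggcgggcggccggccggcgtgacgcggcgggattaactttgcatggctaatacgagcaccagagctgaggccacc
Vdr (chr15:97908297-97908546, minus strand): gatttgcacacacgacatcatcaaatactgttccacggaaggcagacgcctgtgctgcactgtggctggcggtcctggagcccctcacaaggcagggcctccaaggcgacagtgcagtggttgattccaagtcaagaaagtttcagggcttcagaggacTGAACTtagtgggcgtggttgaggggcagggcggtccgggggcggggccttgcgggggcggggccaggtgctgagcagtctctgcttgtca

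Of the 14 starts, 6 had a half-site in these 250 bases (42.9%). They were 2 of the 10 starts covered by a peak in any list and all 4 of the starts covered by none, which are too few for more than a description. The 10 covered starts include 2 of Nr1h3, whose 250 bases overlap and lie under the same peaks, so they are not independent. The Ppard, Ppara, Nr1h2, Nr1h3, Nr1i2 and Nr1i3 promoters and Pparg start 3 held none of the 4 half-sites in these 250 bases, although all were covered by a peak in at least 3 lists. Pparg start 1, covered by no peak, held AGGTCA 28 bases before the start. The Nr1h4 promoter had AGGTCA on the opposite strand 214 bases before the start, and Thrb start 1 had it on the gene's strand 184 bases before. Vdr had AGTTCA on the opposite strand 91 bases before its start. Pparg start 2 and Thrb start 2, also without a peak, held GGGTCA and AGGTCA at 230 and 9 bases and AGTTCA on the opposite strand at 160 bases. No promoter of the 10 genes held 2 half-sites in the same direction 0 to 5 bases apart. Of 32851 RefSeq promoters cut to the same length, 14.0% held AGGTCA, 38.6% held any of the 4 half-sites and 0.706% held such a pair. These matches describe the letters in the window and are not binding sites.

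Peaks were found in the windows of all 10 genes in 5 of the 6 lists. The RARα windows held 75 peaks on the control diet and 83 under RA. The RARβ windows held 31 and 70, and the RXRα windows 140 and 142. Over all genes, 82.9% (RARα, control), 84.0% (RARα, RA), 70.0% (RARβ, control), 77.2% (RARβ, RA), 82.9% (RXRα, control) and 83.5% (RXRα, RA) had a peak in the window. The RARβ control list, with peaks for 8 genes, lacked Pparg and Vdr. Ppara, Ppard, Nr1h2, Nr1h3, Nr1h4, Nr1i2, Nr1i3 and Thrb had a window peak in all 6 lists, 8 of 10 genes against 66.9% of all genes. The median number per gene window was 9 (control) and 9.5 (RA) for RARα, 3.5 and 7.5 for RARβ and 12 and 13 for RXRα. The medians over all genes were 4 and 4, 1 and 3, and 5 and 5. For 16 other nuclear receptor genes, such as Hnf4a and Nr5a2, they were near those of the 10 genes, with 7.5 and 8 for RARα, 3 and 7 for RARβ and 13 and 12.5 for RXRα. Per 100 kb of window the 10 genes had medians of 7.43 (control) and 7.96 (RA) RXRα peaks against 3.74 and 3.63 over all genes.

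**Figure D1:**
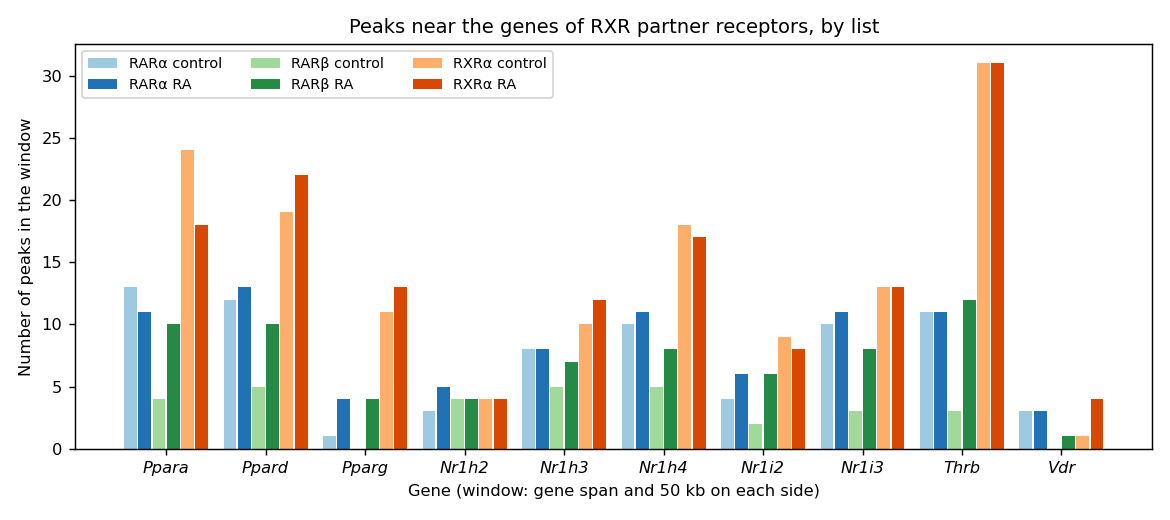
Number of peaks (vertical axis) in the window of each gene (horizontal axis), with 1 bar for each of the 6 lists and no error bars because each list is 1 library. Thrb had 31 RXRα peaks on both diets, Vdr had at most 4 peaks in any list, and the RARβ bar was higher under RA than on the control diet at 9 of the 10 genes.

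Within 10 kb of a start, RXRα peaks were present at 9 of the 10 genes on the control diet (61.7% of all genes) and at 9 under RA (62.2%). For RARα the numbers were 8 (62.2%) on the control diet and 9 (63.5%) under RA. For RARβ they were 5 (45.2%) and 8 (55.6%). Ppara, Ppard, Nr1h2, Nr1h3 and Nr1i3 had a peak in this range in all 6 lists, 5 of 10 genes against 39.6% of all genes. Vdr had none in any list, as had 28.3% of all genes. Within 1 kb of a start, RARα peaks were present at 8 genes on the control diet (49.9% of all genes) and at 9 under RA (49.9%). RARβ peaks lay this close at 2 genes, Ppara and Nr1h2, on the control diet (36.5%) and at 8 under RA (44.0%). RXRα peaks did so at 8 genes on both diets (43.3% and 45.2%). The scores were not unusually high as a group, since the median rank of the window peaks lay between 44.2% and 60.0% from the top of the 6 lists. A few sites stood at the very top. Peaks among the highest 5% of a list were in the windows of 4 genes for RARα on the control diet (Ppara, Ppard, Nr1h3 and Thrb, 20.9% of all genes) and 3 under RA (Ppara, Ppard and Nr1h3, 23.2%). RARβ had such a peak at no gene on the control diet (9.33%) and at 1, Ppara, under RA (17.4%). RXRα had one at 6 genes on the control diet (20.4%) and at 5 under RA (19.2%), and Thrb was the gene that had it on the control diet only. A RXRα peak among the highest 5% on both diets was present in the windows of Ppara, Ppard, Nr1h4, Nr1i2 and Nr1i3, 5 genes against 15.4% of all genes.

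Ppara encodes PPARα, which drives fatty acid oxidation in hepatocytes. Its window held 13 (control) and 11 (RA) peaks of RARα, 4 and 10 of RARβ and 24 and 18 of RXRα. The strongest RXRα site lay inside the gene, 51.9 kb downstream of the start, and scored 1224 on the control diet and 1337 under RA, in the upper 0.492% and 0.441% of its lists. The nearest listed start was that of Cdpf1, 24.1 kb away. RARβ had no peak at this site on the control diet and its highest-ranking peak of all 10 windows under RA, with a score of 309 in the upper 4.45%. RARα scored 134 and 69.7 there. A site at -29.8 kb also had a RARβ peak only under RA, with a score of 179. A second RXRα site at -3.3 kb on the control diet and -3.1 kb under RA scored 1018 and 1134. RARβ had a peak at -3.3 kb, with a score of 158, only in the RA list. Another RXRα site, at 35.8 kb, was in all 6 lists, with RXRα scores of 706 and 665 and RARβ scores of 73.7 and 182. At the promoter itself RARα led, with scores of 479 (upper 3.88%) and 294 (upper 15.6%), while RXRα scored 56.5 (upper 93.9%) on the control diet and had no peak over these 250 bases under RA. The highest RARα peak under RA was at -19.5 kb, with a score of 458. Sites at 75.6 kb and 96.7 kb, both in all 6 lists, lay at the starts of the neighbours Cdpf1 and Ttc38.

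Ppard encodes PPARδ, which is found in most tissues and regulates fatty acid use. It had 12 and 13 peaks of RARα, 5 and 10 of RARβ and 19 and 22 of RXRα. Its start held the highest-ranking RARα promoter peaks among the 10 genes, with scores of 672 (upper 0.98%) on the control diet and 626 (upper 1.3%) under RA. RARβ had a promoter peak only under RA, with a score of 169, and so had RXRα, with a score of 105. RXRα was instead strongest at -6.48 kb, with scores of 704 (control) and 904 (RA). RARα scored 285 and 524 there, and RARβ scored 103 under RA and was not called on the control diet. Sites at 80.6 kb, 95.6 kb and 117 kb were in all 6 lists and lay at the starts of Fance, Rpl10a and Tead3. The highest RARβ peaks of the window, with scores of 187 and 184, were those at Rpl10a.

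Pparg encodes PPARγ, the regulator of fat cell formation, and has 3 listed starts, of which the last gives the form known from adipose tissue. No list had a peak over the 250 bases before starts 1 and 2. At start 3, RXRα scored 506 (control, upper 9.25%) and 202 (RA, upper 36.9%). RARα scored 70.9 under RA and was not called on the control diet. RARβ had no window peak on the control diet. Under RA it had 4, the highest at 58.6 kb beyond start 3, with a score of 170, where RXRα scored 224 and 356. The strongest RARα peak, with scores of 405 and 428, lay 117 kb beyond start 3 and outside the gene. RXRα had no peak there on either diet. Pparg was thus the only one of the 10 genes with RXRα but no RAR peak within 10 kb of a start on the control diet.

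**Figure D2:**
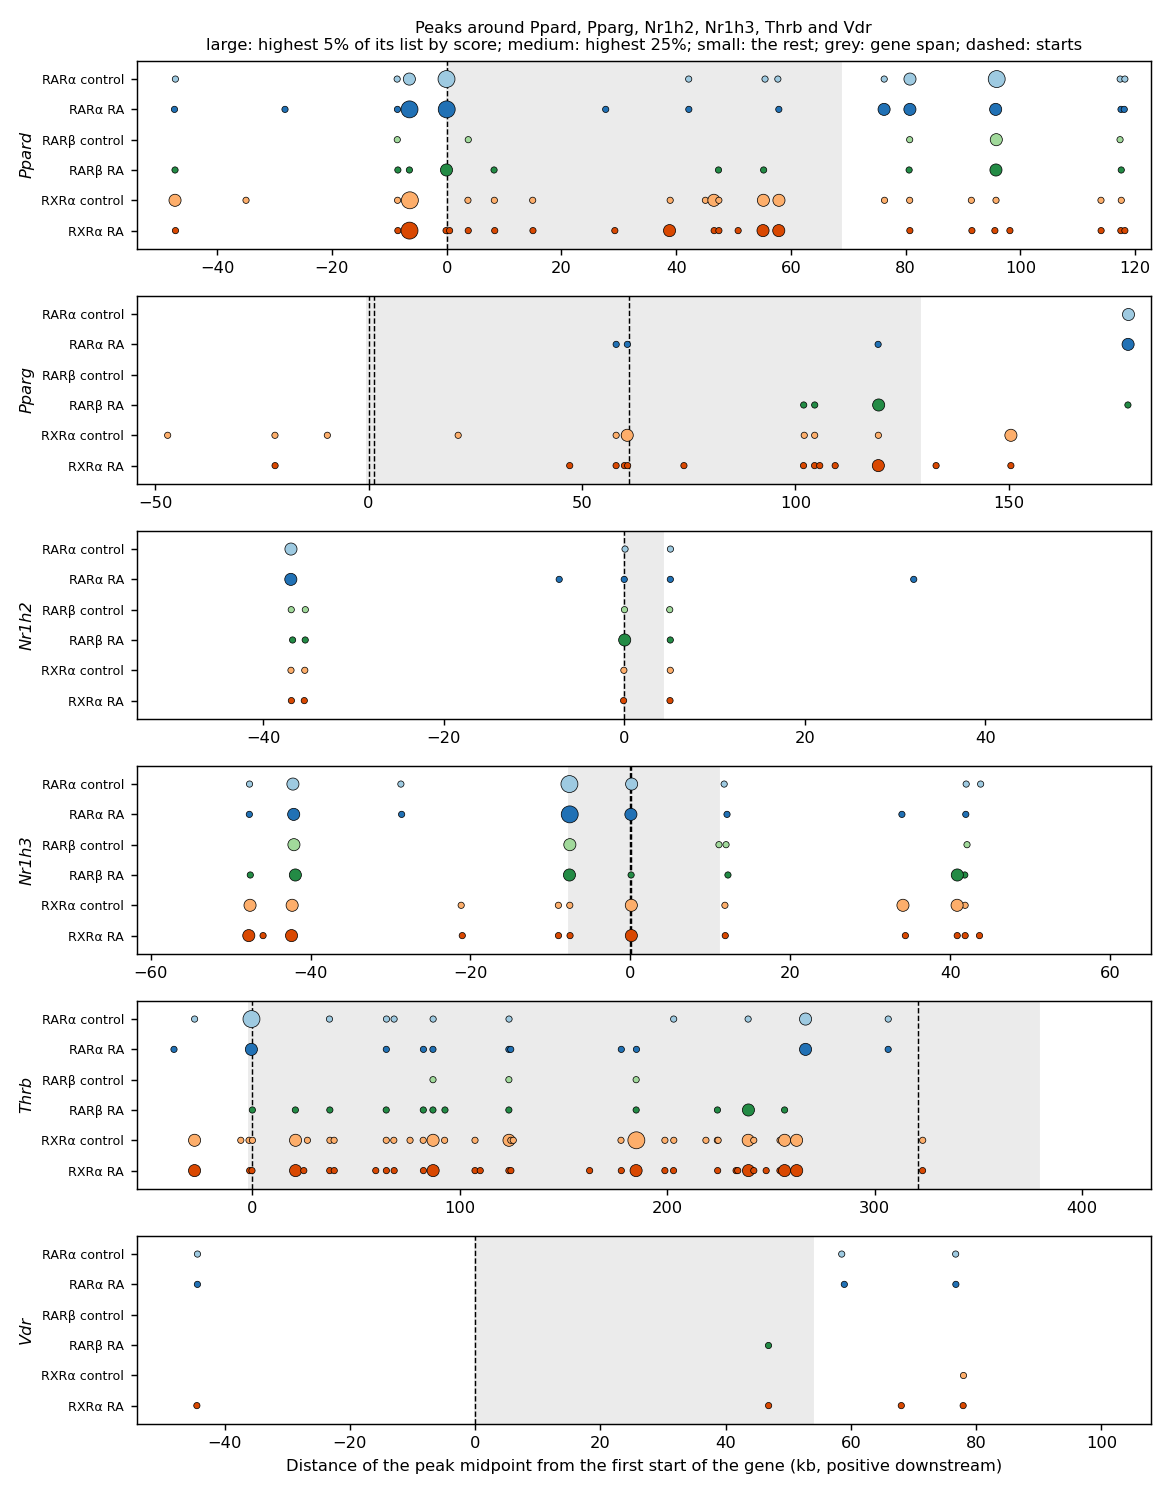
Peak midpoints around Ppard, Pparg, Nr1h2, Nr1h3, Thrb and Vdr against the distance from the first start in kb (horizontal axis), with 1 row for each list and larger circles for higher ranks. Circle sizes stand for the highest 5%, the highest 25% and the rest of a list, grey is the gene span and dashed lines are starts. RXRα peaks were spread along much of the Thrb gene, RARβ control peaks were absent at Pparg and Vdr, and the Vdr start was empty in all 6 lists.

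Nr1h2 encodes LXRβ, which is present in most tissues, and Nr1h3 encodes LXRα, which is abundant in liver and controls cholesterol export and fatty acid synthesis. Nr1h2 had 3 and 5 RARα, 4 and 4 RARβ and 4 and 4 RXRα peaks. It was the only one of the 10 genes with a promoter covered in all 6 lists, with scores of 169 and 165 for RARα, 62.8 and 181 for RARβ and 103 and 120 for RXRα. None of its window peaks ranked in the highest 5% of a list. Just outside the window, RXRα scored 829 (upper 2.51%) on the control diet, 52.5 kb from the gene span. Under RA it scored 1325 (upper 0.46%), 51.9 kb from the span. RARα was strongest at -36.9 kb, with scores of 327 and 297. The highest RARβ peak on the control diet (score 112) and the highest RXRα peak on that diet (score 173) lay 5.1 kb downstream, at the start of Pold1, and the highest RXRα peak under RA (score 223) at -35.5 kb. Nr1h3 had 8 and 8 RARα, 5 and 7 RARβ and 10 and 12 RXRα peaks. Its promoter scored 266 and 231 for RARα and 350 and 394 for RXRα, and RARβ was called there only under RA, with a score of 111. The highest RARα peaks of the Nr1h3 window lay at -7.6 kb, with scores of 714 (upper 0.726%) and 549 (upper 2.35%). RARβ also had its highest peak under RA there (score 227). This site was at the start of the neighbour Acp2 and also at the upstream end of the Nr1h3 span. Both listed Nr1h3 starts lie inside that span. Nearer to Pacsin3, RARβ was strongest on the control diet at -42.1 kb (score 138) and RXRα at -47.6 kb (score 500). A site at 40.8 kb, nearest to Madd, had RXRα scores of 358 and 277 and a RARβ score of 172 under RA only.

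Nr1h4 encodes FXR, which limits bile acid synthesis. It had 10 and 11 RARα, 5 and 8 RARβ and 18 and 17 RXRα peaks. The 2 strongest RXRα sites were inside the gene, at 35.7 kb with scores of 1093 and 827, and at 47.8 kb with scores of 892 and 764. Both were in all 6 lists. RARβ scored 115 and 194 at the first and 94.2 and 232 at the second. Their nearest listed start was that of Gas2l3, downstream of Nr1h4. At the Nr1h4 promoter RXRα scored 161 and 231, lower than at both of these sites, and RARβ scored 53.7 under RA, near the lowest score in the lists. RARα showed no fixed order, with promoter scores of 85.6 and 125 against 81.1 and 142 at 35.7 kb and 135 and 113 at 47.8 kb. Its promoter score was below that at 47.8 kb on the control diet and below that at 35.7 kb under RA. The highest RARα peaks were at 62.7 kb on the control diet (score 192), at the start of Gas2l3, and at -26.3 kb under RA (score 301). The merged region at -26.3 kb covered the upstream end of the Nr1h4 span, and RXRα scored 370 and 479 in it. The listed Nr1h4 start, whose promoter is described here, lies inside the span. Upstream, a site at -59.2 kb had a RARβ peak under RA only (score 176) beside RXRα scores of 529 and 468, with the start of Slc17a8 nearer than that of Nr1h4.

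Nr1i2 encodes PXR, which induces drug-metabolising enzymes such as those of the Cyp3a family. It had 4 and 6 RARα, 2 and 6 RARβ and 9 and 8 RXRα peaks. The highest RXRα peak on the control diet in any of the 10 windows lay 14.9 kb inside this gene. It scored 1337 on the control diet (upper 0.317%) and 1314 under RA (upper 0.498%). RARβ scored 81.0 and 187 there, and RARα was called only under RA, with a score of 152. A second RXRα site at 7.16 kb scored 876 and 961, with a RARβ score of 92.4 under RA only. In this merged region RARα had a peak at 5.49 kb on the control diet (score 63.8) and at 7.90 kb under RA (score 116). These RARα peaks did not overlap. The promoter showed RARα scores of 180 and 239 and RXRα scores of 170 and 185, and a RARβ peak (score 93.0) appeared only under RA.

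Nr1i3 encodes CAR, which induces enzymes of the Cyp2b family. It had 10 and 11 RARα, 3 and 8 RARβ and 13 and 13 RXRα peaks. The strongest RXRα site was at -9.86 kb, with scores of 946 (upper 1.59%) and 1215 (upper 0.723%). RARβ had no peak there on the control diet and scored 284 (upper 5.73%) under RA, and RARα scored 138 and 160. The nearest listed start to this site was that of Pcp4l1. The same was true of a site at -44.9 kb in all 6 lists, with RXRα scores of 859 and 772 and the highest RARβ peak on the control diet (score 76.7). RARα was strongest at 33.1 kb, nearest to Fcer1g, with scores of 428 and 434. Over the promoter RARα scored 195 and 308, RXRα 164 and 142, and RARβ 92.5 under RA only.

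**Figure D3:**
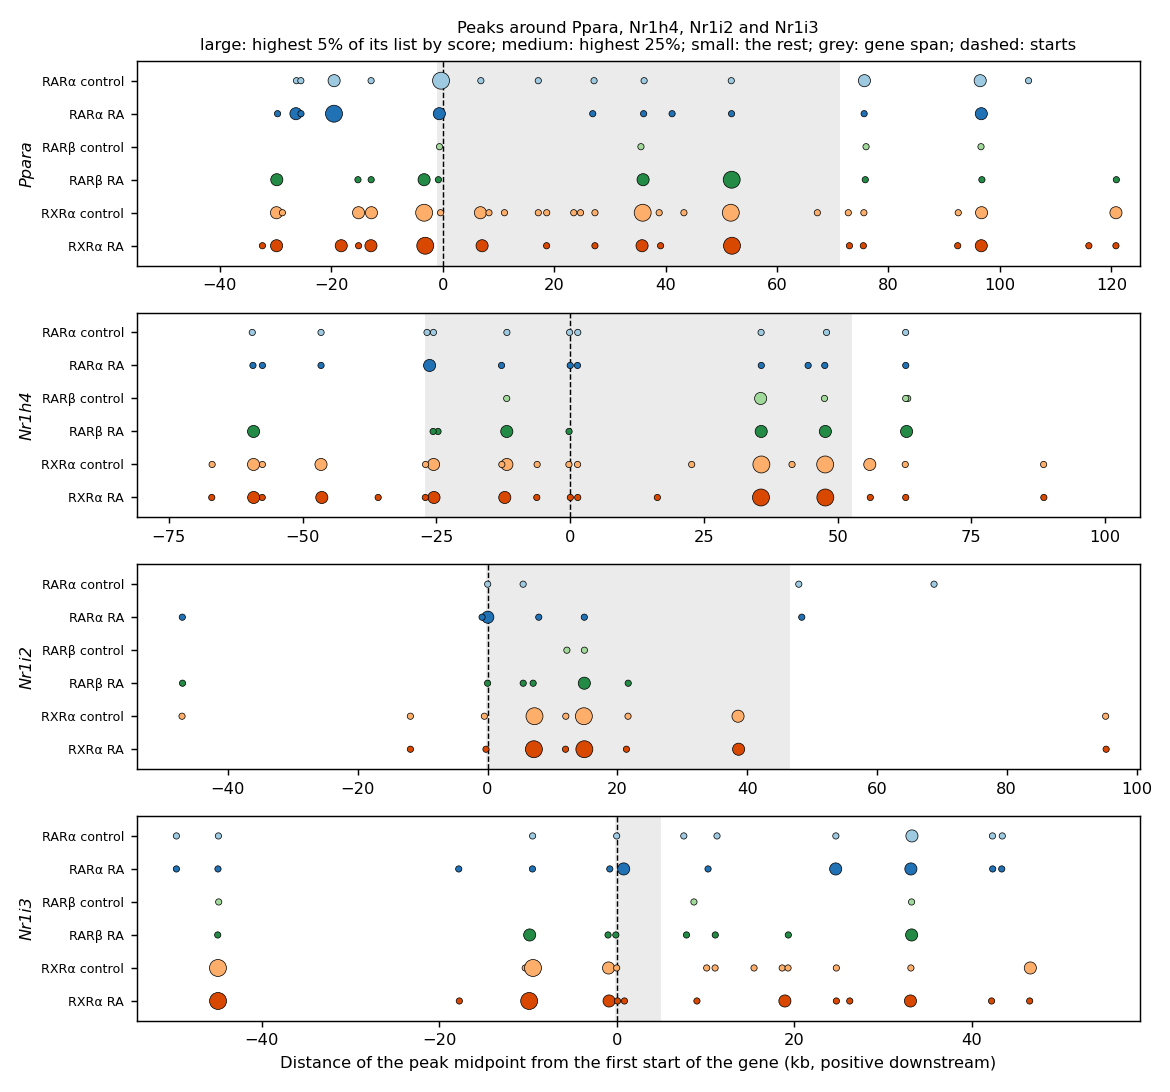
Peak midpoints around Ppara, Nr1h4, Nr1i2 and Nr1i3 against the distance from the start in kb (horizontal axis), with 1 row for each list and larger circles for higher ranks. Large circles mark the highest 5% of a list, medium ones the highest 25% and small ones the rest, grey is the gene span and dashed lines are starts. No large RXRα circle lay within 1 kb of a start. Large ones farther out were those at 51.9 kb in Ppara, 35.7 kb and 47.8 kb in Nr1h4 and 14.9 kb in Nr1i2, among others. Within 10 kb of a start, large ones lay at -3.3 kb (control) and -3.1 kb (RA) at Ppara. Others in this range were at 7.24 kb (control) and 7.15 kb (RA) in Nr1i2 and near -9.86 kb at Nr1i3.

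Thrb encodes the thyroid hormone receptor TRβ, the main form in liver. Its span of 381 kb was the longest of the 10, and it held 11 and 11 RARα, 3 and 12 RARβ and 31 and 31 RXRα peaks. Of the RXRα peaks, 29 and 30 lay inside the gene. The first start was led by RARα, with scores of 456 (upper 4.56%) and 335 (upper 11.6%). RXRα scored 136 and 167 over this promoter, and RARβ scored 124 under RA only. The second, internal start had no peak over its 250 bases in any list. The strongest RXRα site, 185 kb from the first start, scored 708 on the control diet and 519 under RA. At 239 kb, RARβ was called only under RA (score 167), with RXRα scores of 485 and 506. The highest RARβ peak on the control diet, at 124 kb, scored 83.6.

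Vdr, which has little expression in hepatocytes, had the fewest peaks, with 3 and 3 for RARα, 0 and 1 for RARβ and 1 and 4 for RXRα. None had the Vdr start as its nearest start. The only peaks inside the gene were 1 RARβ peak (score 77.8) and 1 RXRα peak (score 89.4), both at 46.7 kb and both under RA. RARα was strongest at -44.3 kb, with scores of 114 and 90.1, nearest to Tmem106c, and RXRα on the control diet at 77.9 kb, with a score of 92.1. The highest score in the window was 120, for RXRα under RA at 68.0 kb, beyond the end of the gene and near Hdac7.

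**Figure D4:**
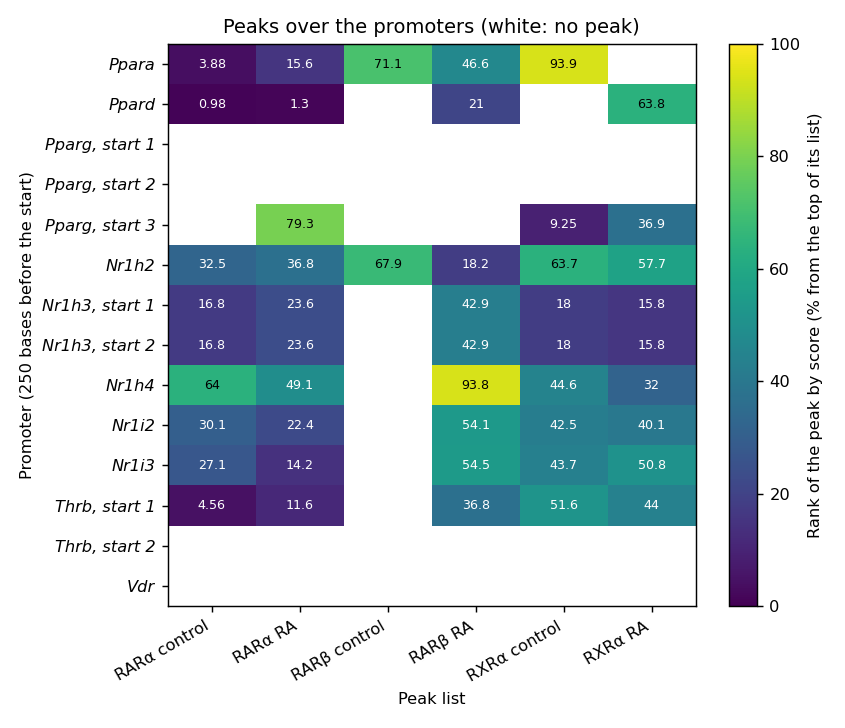
Rank, as a percentage from the top of its list, of the highest peak over the 250 bases before each of 14 listed starts (vertical axis) in each of the 6 lists (horizontal axis), where dark cells are high ranks and white cells have no peak. The RARβ control column was filled for Ppara and Nr1h2 only, and the RARβ column under RA for 8 genes.

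Under RA, RARβ had more window peaks at 9 of the 10 genes (55.6% of all genes) and at no gene fewer (7.0%). It had at least 2 times as many at 7 genes (35.5%), and Nr1h2 had 4 on both diets. RARβ gained a peak within 10 kb of a start at Nr1h4, Nr1i2 and Thrb, 3 genes (12.7%), and lost one at none (2.32%). Within 1 kb of a start, 6 genes gained a RARβ peak, namely Ppard, Nr1h3, Nr1h4, Nr1i2, Nr1i3 and Thrb (10.1%), and none lost one (2.7%). RARα gained a peak within 10 kb at 1 gene, Pparg (3.61%), and lost one at none (2.31%). The same gene was the 1 that gained a RARα peak within 1 kb (2.5%), and none lost one there (2.57%). RARα had more window peaks under RA at 6 genes, Ppard, Pparg, Nr1h2, Nr1h4, Nr1i2 and Nr1i3 (47.3%), with 4 against 1 at Pparg (at least 2 times as many, 10.1%), and fewer at 1, Ppara (13.0%). RXRα gained none (3.91%) and lost none (3.43%) within 10 kb, while within 1 kb it gained a peak at Ppard (1 gene, 5.49%) and had one at Ppara on the control diet only (1 gene, 3.59%). RXRα had more window peaks under RA at 4 genes, Ppard, Pparg, Nr1h3 and Vdr (29.4%), of which Vdr alone had at least 2 times as many (5.61%), and fewer at 3, Ppara, Nr1h4 and Nr1i2 (32.5%). The RARβ lists differed in length as well. When each list was reduced to its 14968 highest-scoring peaks, the RARβ windows held 31 peaks on the control diet and 35 under RA. The RARα windows then held 29 and 25 and the RXRα windows 43 and 37. RARβ thus differed no more than the others, but lists of equal length bring such counts closer by construction. In these lists Thrb was the 1 gene that gained a RARβ peak within 10 kb, and RARα gained none. With scores of at least 100, the genes that gained a peak within 10 kb were Nr1h4 for RARα and Ppara, Ppard, Nr1i3 and Thrb for RARβ, so that of those named above only Thrb was kept. The part of list length, and of the unknown depth, in the difference between diets was not tested.

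Most RARβ peaks of the RA list had no counterpart on the control diet. Of the 70 window peaks under RA, 43 (61.4%) overlapped no RARβ control peak, against 61.1% of the whole list. Of these 43, 37 shared a position with a RXRα peak under RA (86.0%, Wilson 95% interval 72.7 to 93.4), against 88.2% of such peaks over the whole list. In the other direction, 90.3% of the 31 RARβ control peaks were shared with the RA list (75.1 to 96.7), against 75.8% of the whole list. For a peak to count as shared, the overlap had to span 25% or more of both peaks. These intervals cover counting error only and not differences between animals. For RARα 78.7% of the control window peaks were shared with the RA list (68.1 to 86.4; whole list 84.2%), and for RXRα 76.8% of the RA window peaks were shared with the control list (69.2 to 82.9; whole list 80.3%). Each of these 2 intervals held the share of the whole list.

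Peaks called on 1 diet only ranked low, with medians of 74.0% to 89.2% from the top in 5 lists and 59.4% for RARβ under RA. The median of such peaks over the whole RARβ list under RA was near this, at 63.1%, so the low rank is not particular to these genes. It was not computed for the other whole lists. In the RARβ list under RA 9 window peaks without a control counterpart ranked in the highest 25% (12.9% of the window peaks, against 7.39% of the whole list). They were 3 at Ppara and 1 each at Ppard, Pparg, Nr1h3, Nr1h4, Nr1i3 and Thrb. Ppara also had the 1 such RXRα peak under RA, at -18.2 kb with a score of 388, where 0.0386% of the whole list qualified. None of the RARα peaks (0.0394% of the control and 0.214% of the RA list), RARβ control peaks (0.755%) or RXRα control peaks (0.236%) in the windows qualified.

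In the full lists most RAR window peaks lay on RXRα peaks. On the RA diet 90.0% of the RARβ window peaks were shared with RXRα (80.8 to 95.1; whole list 89.9%), and 87.1% on the control diet (71.1 to 94.9; whole list 77.8%). For RARα the shares were 68.7% under RA (58.1 to 77.6; whole list 61.7%) and 70.7% on the control diet (59.6 to 79.8; whole list 61.1%). Each interval held the value of the whole list. With all lists at equal length, for which the RXRα lists lose most of their peaks, the shares were 31.0% (control) and 28.0% (RA) for RARα and 32.3% and 62.9% for RARβ. When all peaks were merged into 182 regions, 158 had RXRα on at least 1 diet (86.8%, against 79.9% of the 87802 regions of the whole lists). RXRα without RAR was found in 71 (39.0%, against 36.3%), and RAR without RXRα in 24 (13.2%, against 20.1%). All 6 lists met in 24 regions (13.2%, against 9.75%), of which Ppara, Ppard, Nr1h3 and Nr1h4 had 4 each, Nr1h2 and Nr1i3 had 3 each, Thrb had 2, and Pparg, Nr1i2 and Vdr had none. Of 39 regions with RARβ under RA only, 33 had RXRα on both diets (84.6%), near the 83.3% of such regions in the whole lists.

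RXRα sites that also carried RARβ under RA had higher scores. The 63 RXRα window peaks of the RA list shared with RARβ had a median score of 268, and the 79 without RARβ had a median of 116. The corresponding medians of the whole list were 262 and 98.6.

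**Figure D5:**
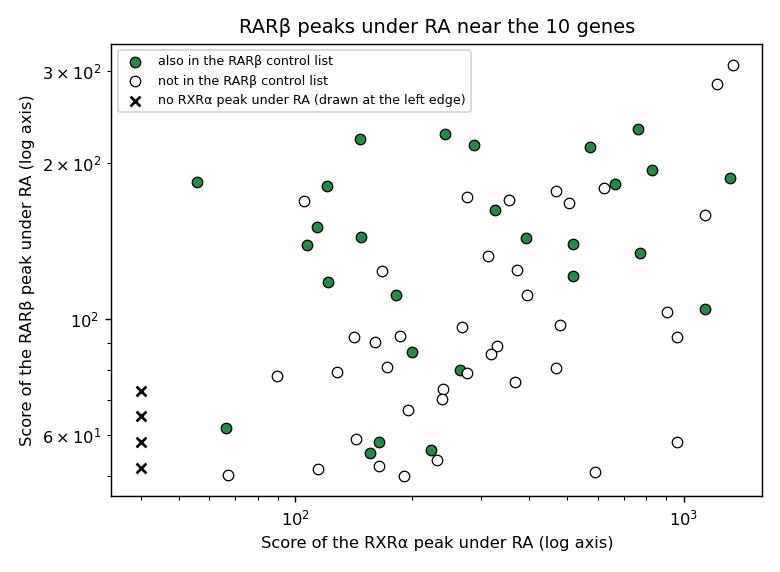
Score of each of the 70 RARβ window peaks under RA (vertical axis, log scale) against the score of the overlapping RXRα peak under RA (horizontal axis, log scale). Filled circles also overlapped a RARβ control peak, open circles did not, and crosses at the left edge mark the 4 peaks without any RXRα overlap.

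The window was set by distance alone. Between 45 and 50 kb from the gene span, just inside it, lay 30 peaks with scores of 51.0 to 460 (median 80.7). Between 50 and 55 kb, just outside it, lay 50 peaks with scores of 50.9 to 1325 (median 134). The highest was the RXRα peak under RA beside Nr1h2. Many window peaks belonged at least as much to a neighbour. The nearest listed start was that of the gene itself for 33 and 37 RARα, 11 and 34 RARβ and 72 and 74 RXRα peaks.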

How the data were processed

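ChIP-seq libraries for RARα, RARβ and RXRα on 2 diets, 1 per receptor and diet, were grouped by their labels. The authors aligned single-end reads with Bowtie to mm10 and called peaks with MACS. The deposited files are 1 peak list per library with the caller's score, which was used only within a list (lowest score 50). The input library was not analysed here. Read totals are not in the lists.

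Genes and starts were taken from RefSeq on GRCm38.p6. Of 21887 protein-coding genes 17492 had a listed start, and all 10 genes matched. The build was checked on the files: between 12.9% and 39.9% of a list's peaks had a GRCm38.p6 start within 1 kb, against 5.65% to 8.44% with NCBIM37. NCBIM37 coordinates were not used, and exons, introns and peak sequences were not analysed here. Offsets are from the nearest listed start of the gene to the peak midpoint, with negative values upstream.

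The 10 genes, the comparison lists and the rules were chosen with earlier results of these data known. All 10 genes are named, with their counts, the highest-scoring peak of each list and peaks of 1 diet in the highest 25% of a list. Of the regions within 10 kb of a start, which the rule also names, the text gives those over the promoters and the strongest. Peaks were shared when the overlap spanned 25% or more of both. Merged regions can join neighbouring peaks, and the highest score in a region is given. Shares have Wilson 95% intervals. No test between groups was possible. Python 3.11.15, numpy 2.4.6, pandas 2.3.3 and scipy 1.17.1 were used, and the overlap code was tested on simulated peaks. Alternatives were a minimum score of 100, lists of equal length, a window of 10 kb, a limit of 1 kb, the nearest start only, an overlap of 1 base, the share of the longer list, and the outermost end of the gene span as the start.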

Additional observations from a re-analysis of the deposited data

How the results depend on the processing

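With 1 library per receptor and diet, none of the differences has a replicate check, and depth limits each count in an unknown way. No paired analysis was possible because the result comes from no test. Of the values recomputed for the 10 genes together, 68 stayed close to the reported ones in size and 42 moved. A share was called close when it lay in the reported interval, and a count when its ratio to the reported one stayed within a set limit. Some counts could not move, since the RARβ control list is the shortest and stays whole at equal length. Others compared 0 genes with 0. The 68 is therefore not a measure of stability. A count can stay close with other genes in it: with a score of at least 100, RARα gained Nr1h4 in place of Pparg, and RARβ gained 4 genes (Ppara, Ppard, Nr1i3 and Thrb), of which only Thrb was among the reported 3. With lists of equal length, the windows held 29 (control) and 25 (RA) RARα, 35 RARβ (RA) and 43 and 37 RXRα peaks, RXRα under RA was within 10 kb of 5 genes, the shares with RXRα were 31.0% and 28.0% for RARα and 32.3% and 62.9% for RARβ, and the shares between diets were 62.1% (RARα), 71.0% (RARβ) and 86.5% (RXRα). With a score of at least 100, 37 and 53 RARα and 7 and 35 RARβ peaks were left, RARβ on the control diet was within 10 kb of 2 genes, the shares with RXRα on the control diet were 56.8% (RARα) and 57.1% (RARβ), and the share of RARβ peaks between diets was 100%. With a window of 10 kb there were 44 and 49 RARα peaks, 19 RARβ peaks (control) and 93 RXRα peaks (RA), and 81.8% of the RARα control peaks were shared with RXRα. With the nearest start only there were 33 and 37 RARα, 11 and 34 RARβ and 72 and 74 RXRα peaks. As a share of the longer list, 38.6% of the RARβ peaks were shared between diets. With a limit of 1 kb, RARβ on the control diet was at 2 genes, RARβ gained 6 genes, RXRα gained 1 (Ppard) and RXRα lost 1 (Ppara). The alternatives for gained and lost genes, and the outermost end of the span as the start, were chosen after seeing the data. With lists of equal length RARα gained 0, RARβ gained 1 (Thrb) and RXRα lost 1 (Pparg), and with the outermost end of the span RARα gained 0 and RXRα lost 1 (Pparg). Shorter lists hold fewer peaks by construction. The cause of the other changes was not tested. Counts for single genes moved in 155 of 240 recomputed values.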

Other observations

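Genes that the 10 receptors or RXR act with were compared by counts only. Of 8 known targets of these receptors with a listed start, namely Pdk4, Abcg5, Srebf1, Abcb11, Cyp3a11, Cyp2b10, Thrsp and Dio1, all 8 had a RXRα and a RARα peak within 10 kb of the start on both diets. RARβ peaks were present at 5 of the 8 on the control diet and at 8 under RA, with Abcb11, Cyp3a11 and Cyp2b10 in the RA list only. Among 16 other nuclear receptor genes, RARα peaks were present at 14 on both diets, RARβ peaks at 13 and 14, and RXRα peaks at 13 on both. Rara, Rarb, Rarg, Rxra, Rxrb, Rxrg, Nr4a1 and Nr4a2 all had a RXRα peak within 10 kb on both diets. Over all genes, 61.7% (control) and 62.2% (RA) had a RXRα peak in this range. The shares were 62.2% and 63.5% for RARα and 45.2% and 55.6% for RARβ.

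Of the hepatocyte markers Alb, Apoa1 and Tat, all 3 had a RXRα peak within 10 kb of the start on both diets. RARα peaks were present at Apoa1 (control) and at Apoa1 and Tat (RA), that is at 1 and 2 of the 3, and RARβ peaks at 2 on both diets. The Kupffer cell markers Clec4f and Cd5l had no peak within 10 kb in any list. The stellate cell marker Lrat and the endothelial marker Stab2 had a RARα peak within 10 kb on both diets and no RARβ or RXRα peak there, and the stellate markers Des and Reln had none. In the wider window, however, Stab2 had 23 (control) and 19 (RA) RXRα peaks, against medians of 15 and 15 at the hepatocyte markers. It also had 4 and 7 RARβ peaks in this window. The markers Ttr, Adgre1 and Lyve1 had no listed start and were left out. These markers are too few for more than a description.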
